A study of Mus musculus with 16 samples.

Results

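The Mir17hg cluster was followed through 8 of its mature microRNAs: mmu-miR-17-5p, mmu-miR-17-3p, mmu-miR-18a-5p, mmu-miR-18a-3p, mmu-miR-19a-3p, mmu-miR-19b-3p, mmu-miR-20a-5p and mmu-miR-92a-3p (the prefix for mouse is left off from here on). They were taken by name from a table of 1915 mature mouse microRNAs, as arms of the hairpins that lie in the Mir17hg transcript. The table holds small RNA counts from extracellular vesicles (EVs) of bone marrow plasma, pulled down through their HA tag. The Ocn group comprised 6 mice of genotype CAGS-Snorkel//Ocn-Cre (3 male and 3 female), whose Cre is under the osteocalcin promoter, active in mature osteoblasts. The Prx1 group comprised 10 mice of genotype CAGS-Snorkel//Prx1-Cre (5 male and 5 female), in which Cre is active in early limb mesenchyme and its descendants. All mice were 6 months old, on the C57BL/6N background, and carried the CAGS-Snorkel reporter. Mice that lack Cre were not analysed here, and the levels therefore have no measured background.

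Mir17hg is transcribed as a single long RNA from which several hairpins are cut in the nucleus. Each hairpin is then trimmed to a duplex of a 5p and a 3p arm, of which a single strand is usually kept in Argonaute as the guide while the other, the passenger, is mostly lost. The guide finds target messages through its seed, bases 2 to 8 of the mature sequence. The cluster is known for supporting proliferation and survival of blood progenitors, above all of the B lineage, and its loss in humans causes a form of Feingold syndrome with skeletal defects.

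The hairpins lie on chromosome 14, plus strand, of mm10. In the GENCODE annotation all 6 (Mir17, Mir18, Mir19a, Mir20a, Mir19b-1 and Mir92-1) fall in exon 2 of the 2 exons of the lincRNA Mir17hg (chr14:115042879-115046727). They span 836 bases from the start of Mir17 (chr14:115043671-115043754) to the end of Mir92-1 (chr14:115044427-115044506), with gaps of 35 to 96 bases between neighbours. miR-19b-3p and miR-92a-3p are also made, letter for letter, from Mir19b-2 (chrX:52741983-52742066) and Mir92-2 (chrX:52741838-52741928), so their counts cannot be assigned to chromosome 14 alone. The mature sequences of all 8 members were found in RefSeq (GRCm38.p6). They are shown 5′ to 3′ with the seed in capitals, because the seed sorts the members into families of shared targets.
miR-17-5p: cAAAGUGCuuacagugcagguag
miR-20a-5p: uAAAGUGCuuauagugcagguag
miR-18a-5p: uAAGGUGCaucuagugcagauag
miR-19a-3p: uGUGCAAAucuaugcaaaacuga
miR-19b-3p: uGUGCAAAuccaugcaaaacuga
miR-92a-3p: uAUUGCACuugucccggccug
miR-17-3p: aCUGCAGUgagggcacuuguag
miR-18a-3p: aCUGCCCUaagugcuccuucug

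miR-17-5p and miR-20a-5p share a seed and differ at 2 positions counted from the 5′ end (C1U and C12U). miR-19a-3p and miR-19b-3p share a seed and differ at a single position (U11C). The remaining seeds are each held by 1 member. miR-17-5p differs from miR-106a-5p of the X chromosome paralog at 1 position (U10A), and miR-18a-5p differs from miR-18b-5p at 2 (A18U and A20U). Reads of these pairs, and of the pairs of members above, could be shared by the counting. Its tool is not given in the sources used here.

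Totals per library were 582660 to 1536421 in Ocn, against 225273 to 813770 in Prx1, so depth differed with the group. Levels below are CPM, the count scaled to the library total. Among marker microRNAs of cell types, 0 to 2 per list passed the test between groups (edgeR adjusted p, described below). Of 5 erythroid entries 2 were lower in Ocn, and of 4 muscle entries 2 were lower. Of 4 lymphoid entries 1 was higher and 1 lower, and 1 of 6 mesenchymal entries was higher. Of 3 myeloid and pan-leukocyte entries 0 passed, and of 2 endothelial entries 0. Their summed levels overlapped between the groups, with 23947 to 43670 CPM in Ocn, against 31874 to 47291 CPM in Prx1 for the erythroid list, 5198 to 8767 CPM in Ocn, against 5191 to 8315 CPM in Prx1 for the lymphoid list, and 39067 to 94359 CPM in Ocn, against 42090 to 68987 CPM in Prx1 for the myeloid list. The mesenchymal list, the kind of cell both drivers mark, had 31981 to 43677 CPM in Ocn, against 27199 to 35912 CPM in Prx1, the muscle list 46727 to 77413 CPM in Ocn, against 39885 to 70774 CPM in Prx1, and the endothelial list 16712 to 20837 CPM in Ocn, against 12913 to 19289 CPM in Prx1. The liver microRNA miR-122-5p, which was not tested, had 4.40 to 23.5 CPM in Ocn, against 0 to 22.2 CPM in 9 Prx1 libraries and 1644 CPM in Prx1 5. The erythroid pair that passed, miR-486a-5p and miR-486b-5p, had near-equal log2 fold changes (-0.385 and -0.383) and Ocn means (13100 and 13000 CPM). This pair may be a single signal, both in the count of entries and in the summed level. The other 3 erythroid entries lay above 0 (0.17 to 0.58), as did miR-1a-3p of the muscle list (0.34), without passing. In the mesenchymal list 3 of 6 entries lay above 0, with a median log2 fold change of -0.04. There miR-10b-5p lay at -0.41 (SE 0.14, edgeR adjusted p = 0.0569). Over all 234 tested microRNAs, 13.7% passed in either direction. None of the lists was at 0 throughout, and the part of these cells in the results below was not tested. In such bulk samples fewer vesicles of a source and less RNA per vesicle cannot be told apart.

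Together the 8 members made up 1.12% ± 0.18 of the total in Ocn and 1.14% ± 0.086 in Prx1 (SD, n = 6 and 10). All 8 had counts in every library. Their levels were far apart within the single transcript, as the map of levels along the hairpins shows.

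**Figure D1:**
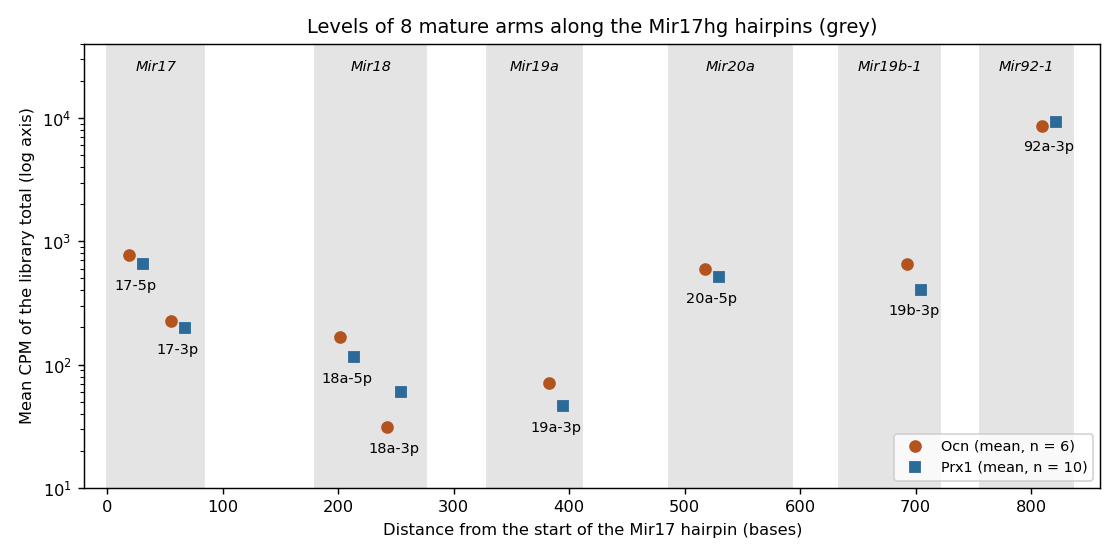
Mean CPM of the library total (log axis) of the 8 arms at their distance in bases from the start of the Mir17 hairpin, with hairpins in grey, circles for Ocn (n = 6) and squares for Prx1 (n = 10). miR-92a-3p, at the far end, stood at 8706 CPM in Ocn, against 9375 CPM in Prx1, while miR-18a-3p, at 31.0 CPM in Ocn, against 59.6 CPM in Prx1, showed the widest gap between the groups.

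miR-92a-3p, the arm of the last hairpin and known as a brake on vessel growth in endothelium, was the most abundant member in all 16 libraries. Its lowest, median and highest levels were 6870, 8985 and 10489 CPM in Ocn, against 7071, 9855 and 10520 CPM in Prx1. It supplied 77.3% ± 3.4 of the members' summed counts in Ocn and 82.4% ± 4.7 in Prx1 (SD, n = 6 and 10), with overlapping ranges.

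Next came miR-17-5p, miR-19b-3p and miR-20a-5p, whose order changed from library to library. miR-17-5p averaged 781 ± 163 CPM in Ocn, against 651 ± 415 CPM in Prx1, miR-19b-3p 658 ± 197 CPM in Ocn, against 406 ± 114 CPM in Prx1, and miR-20a-5p 599 ± 103 CPM in Ocn, against 509 ± 65 CPM in Prx1 (SD, n = 6 and 10). Within either group the intervals of mean ± SD of these 3 overlapped each other. miR-17-5p was second to miR-92a-3p in 5 of 6 Ocn and 4 of 10 Prx1 libraries, miR-19b-3p in 1 Ocn and 2 Prx1 libraries, and miR-20a-5p in 0 Ocn and 4 Prx1 libraries.

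The lower members were miR-17-3p, with 225 ± 72 CPM in Ocn, against 196 ± 41 CPM in Prx1, miR-18a-5p, with 166 ± 34 CPM in Ocn, against 115 ± 31 CPM in Prx1, miR-19a-3p, with 71.5 ± 47.4 CPM in Ocn, against 45.9 ± 12.0 CPM in Prx1, and miR-18a-3p, with 31.0 ± 4.7 CPM in Ocn, against 59.6 ± 13.7 CPM in Prx1 (SD, n = 6 and 10). The lowest place was held by miR-18a-3p in all 6 Ocn libraries, but by miR-18a-3p in only 3 and by miR-19a-3p in 7 of the 10 Prx1 libraries. miR-19a-3p and miR-19b-3p differ in a single base, and miR-19b-3p is also made from a hairpin on the X chromosome. miR-19b-3p had 4.71 to 18.8 counts per count of miR-19a-3p in Ocn and 6.21 to 15.3 in Prx1.

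**Figure D2:**
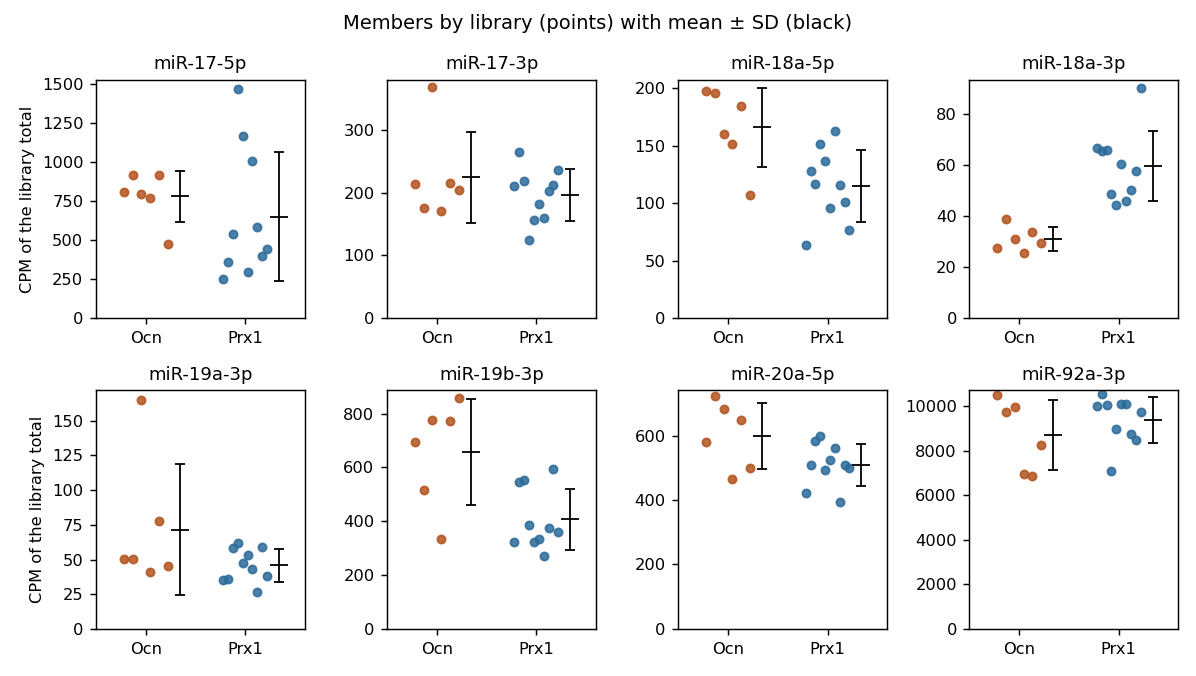
CPM of the library total for each member, 1 point per library, with Ocn left and Prx1 right and the mean ± SD in black (n = 6 and 10). The groups are apart for miR-18a-3p, overlap for the other 7 members, and miR-17-5p in Prx1 is spread from 248 to 1465 CPM.

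The main comparison asked which members differed in EVs tagged by the osteoblast driver from those tagged by the limb mesenchyme driver. It was made with the quasi-likelihood test of edgeR over the 234 microRNAs with sufficient counts, which included all 8 members, with Benjamini-Hochberg adjustment over the 234. miR-19b-3p was higher in Ocn and miR-18a-3p was lower, and the other 6 members did not pass the adjusted threshold of 0.05. The 2 calls among 8 members stand beside 13.7% called among all 234, with 1 higher beside 5.98% and 1 lower beside 7.69%. Over the 234, 14 were higher in Ocn and 18 lower, and 26 and 11 with upper quartile factors, under which the overall median became 0.13. The median log2 fold change of the 8 was 0.22, against 0.01 over all 234, with 6 of the 8 and 119 of the 234 above 0.

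miR-19b-3p, which with miR-19a-3p forms the seed family most tied to the survival function of the cluster, had a lowest, median and highest level of 334, 734 and 857 CPM in Ocn, against 272, 367 and 595 CPM in Prx1. All but 2 Ocn libraries stood above every Prx1 library. The exceptions were Ocn 4 at 334 CPM and Ocn 2 at 516 CPM. Its log2 fold change was 0.65 (SE 0.18, edgeR adjusted p = 0.0180). The call was kept with each of the 16 libraries left out in turn (adjusted p of 0.00468 to 0.0295). It was lost when log10 of the library total was added to the model (0.57, SE 0.26, edgeR adjusted p = 0.263). Of 20 draws in which every library was thinned to 225273 counts, 17 kept it.

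Its near-twin miR-19a-3p had 40.9, 50.2 and 165 CPM as lowest, median and highest level in Ocn, and 26.8, 45.3 and 62.1 CPM in Prx1. Ocn 3 and, less so, Ocn 5 (77.5 CPM) stood above all other libraries, and the remaining Ocn libraries lay within the Prx1 range. The log2 fold change of 0.57 (SE 0.26) did not pass (edgeR adjusted p = 0.154), and without Ocn 3 it was 0.27. Among the 1623 microRNAs of the table for which a mature sequence was found, no other has this seed. The pair is the whole of its seed family there, with 730 ± 220 CPM in Ocn, against 452 ± 119 CPM in Prx1 (SD, n = 6 and 10).

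miR-18a-3p, the passenger arm of Mir18, was the only member whose groups did not overlap, as was the case for 3.85% of the 234. It had 25.7, 30.1 and 38.7 CPM as lowest, median and highest level in Ocn, against 44.4, 59.1 and 90.2 CPM in Prx1. These levels rest on 17 to 52 counts per library in Ocn and 11 to 47 in Prx1. The log2 fold change was -0.96 (SE 0.18, edgeR adjusted p = 0.00125) and the call was kept with each library left out in turn (adjusted p of 0.000655 to 0.00712). With log10 of the library total in the model it was -0.99 (SE 0.28, edgeR adjusted p = 0.0869), and 17 of 20 thinned draws kept it.

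The opposite arm, miR-18a-5p, the guide known to repress Ctgf, had 107, 172 and 198 CPM in Ocn and 63.6, 116 and 163 CPM in Prx1 as lowest, median and highest levels. In 3 of 6 Ocn libraries it stood above every Prx1 library, and the ranges overlapped in the rest. Its log2 fold change of 0.50 (SE 0.18) fell just short with edgeR (adjusted p = 0.0596). It passed with DESeq2 (0.51, SE 0.18, adjusted p = 0.0312) and with limma voom (0.53, SE 0.17, adjusted p = 0.0429), and in 5 of the 16 edgeR fits with 1 library left out. With log10 of the library total in the model it did not pass (0.49, SE 0.28, edgeR adjusted p = 0.366), and only 3 of 20 thinned draws called it.

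The members of the AAAGUGC seed, which target cell cycle genes such as E2f1 and Cdkn1a, gave 0.23 (SE 0.33, edgeR adjusted p = 0.707) for miR-17-5p and 0.20 (SE 0.11, edgeR adjusted p = 0.237) for miR-20a-5p. For miR-17-3p the log2 fold change was 0.13 (SE 0.16, edgeR adjusted p = 0.678) and for miR-92a-3p it was -0.14 (SE 0.12, edgeR adjusted p = 0.464). For these 4 the ranges of the groups overlapped. The SE of miR-17-5p was the largest of the 8 and those of miR-20a-5p and miR-92a-3p the smallest.

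**Figure D3:**
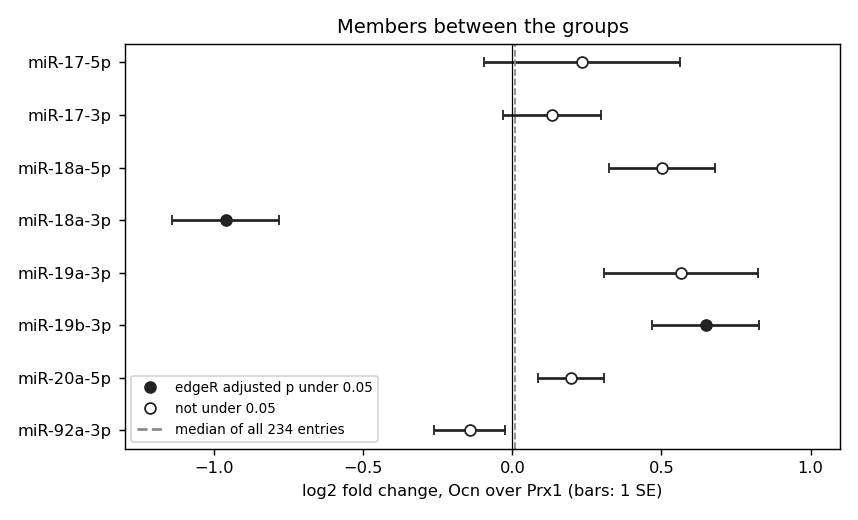
Log2 fold change of each member, Ocn over Prx1, with bars of 1 SE. Filled points have an edgeR adjusted p under 0.05 (miR-18a-3p at -0.96 and miR-19b-3p at 0.65), open points do not, and the dashed line is the median of all 234 tested microRNAs at 0.01.

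The transcript yields both arms of Mir17 and Mir18 in countable amounts, so the ratio of 5p to 3p could be followed in each library without any scaling. For miR-18a the number of 5p counts per 3p count was 3.65, 5.30 and 7.18 as lowest, median and highest value in Ocn, against 0.848, 1.86 and 3.56 in Prx1. The groups did not overlap, and in Prx1 10 and Prx1 1 the 3p arm had slightly more counts than the 5p arm. On the 5p arm lay 83.9% ± 3.1 of the hairpin's counts in Ocn and 64.8% ± 10.8 in Prx1 (SD, n = 6 and 10). The counts behind a single library were few: in Prx1 1, 20 of 41 counts were 5p, or 48.8% with an exact binomial 95% interval of 32.9% to 64.9%, and in Prx1 4, 34 of 45, or 75.6% with 60.5% to 87.1%.

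The log2 ratio of miR-18a averaged 2.38 ± 0.32 in Ocn and 0.91 ± 0.68 in Prx1 (SD, n = 6 and 10), a difference of 1.47 (SE 0.28, limma adjusted p = 0.00110 over 44 hairpins with both arms tested). It had the smallest p of the 44, of which 6.82% passed, all with a higher ratio in Ocn. For miR-18a an exact permutation test, 2-sided and not adjusted, gave p = 0.000250. This is the lowest value that the 8008 splits allow, and it follows from the lack of overlap given above. Leaving out any of the 16 libraries kept the call (differences of 1.35 to 1.58). With log10 of the library total in the model the difference was 1.48 (SE 0.44, limma adjusted p = 0.0787), and 18 of 20 thinned draws kept the call. The Prx1 libraries with totals inside the range of Ocn, Prx1 8 with 596734 counts and Prx1 9 with 813770, had 2.30 and 1.74 counts of 5p per count of 3p, below the lowest Ocn library. These libraries are few, and depth and group moved together, so the parts of depth and group cannot be told apart. Summed over both arms, miR-18a stood at 197 ± 37 CPM in Ocn, against 174 ± 23 CPM in Prx1, with overlapping ranges.

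For miR-17 the same ratio had a lowest, median and highest value of 2.17, 4.02 and 5.23 in Ocn and of 1.182, 2.19 and 11.8 in Prx1. All 6 Ocn libraries lay inside the Prx1 range. Prx1 4 at 11.8, Prx1 5 at 7.43 and Prx1 7 at 6.29 stood above every Ocn library, while Prx1 1, Prx1 2, Prx1 6, Prx1 9 and Prx1 10 lay below the lowest of them. The difference of the log2 ratio was 0.30 (SE 0.44, limma adjusted p = 0.703), ranking 31 of the 44 hairpins by p, with an exact permutation p of 0.538. Without Prx1 5, the library high in miR-122-5p, it was 0.46 (SE 0.42, limma adjusted p = 0.521), and the log2 fold change of miR-17-5p was 0.34 (SE 0.34, edgeR adjusted p = 0.578). The 5p arm held 92.2% of the counts of the hairpin in Prx1 4, the highest library (exact binomial 95% interval of 88.9% to 94.7%), and 54.2% in Prx1 1, the lowest (45.7% to 62.5%).

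**Figure D4:**
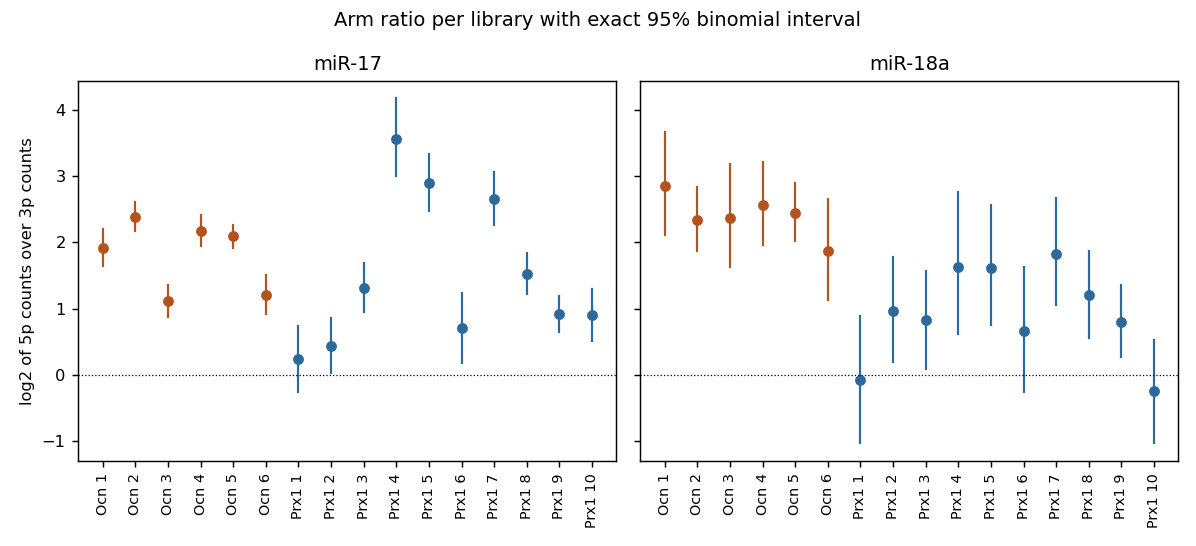
Log2 of 5p counts over 3p counts in each library for miR-17 (left) and miR-18a (right), with the exact 95% binomial interval, which covers counting error at most. For miR-18a every Ocn point lies above every Prx1 point, and for miR-17 Prx1 4, Prx1 5 and Prx1 7 lie above all Ocn libraries.

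Both arms of miR-17 varied between libraries. miR-17-5p ranged 1.94-fold within Ocn and 5.90-fold within Prx1, and miR-17-3p 2.15-fold within Ocn and 2.13-fold within Prx1. Prx1 4, Prx1 5 and Prx1 7, the libraries with the highest miR-17 ratios, were the 3 highest Prx1 libraries in miR-17-5p and also the 3 lowest in miR-17-3p, at 124, 157 and 160.1 CPM, with 181 to 265 CPM in the other Prx1 libraries. Libraries picked by a high ratio lean to a high 5p and a low 3p arm. The pattern was not particular to miR-17. The same 3 libraries had the highest miR-18a ratios of Prx1 (3.09, 3.07 and 3.56), the highest miR-18a-5p and the lowest miR-18a-3p. They were also the 3 highest of Prx1 in miR-139-5p and miR-144-3p. The SD of log2 CPM of miR-17-5p was 0.35 within Ocn and 0.87 within Prx1, where the median over all tested microRNAs was 0.32 within Ocn and 0.40 within Prx1. In Prx1 it was the widest of the 75 tested microRNAs with a mean level in Prx1 at least as high. Its seed partner miR-20a-5p had an SD of 0.26 within Ocn and 0.19 within Prx1, among the lowest of the members. Per count of miR-20a-5p there were 0.950 to 1.66 counts of miR-17-5p in Ocn and 0.561 to 2.44 in Prx1. The libraries with the 3 highest miR-17-5p levels in Prx1 (1465 CPM in Prx1 4, 1167 CPM in Prx1 5 and 1006 CPM in Prx1 7) had 599, 492 and 562 CPM of miR-20a-5p, within a range of 394 to 599 CPM over Prx1, of which Prx1 4 was the highest.

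How alike entries were across the 16 libraries was measured as the SD of their log2 ratio, which needs no scaling. This SD is small where a pair moves together, but also where both entries vary little, and a shift between the groups widens it. Over the 28 pairs of members it ran from 0.31 for miR-20a-5p with miR-92a-3p to 1.12 for miR-17-5p with miR-18a-3p. Within Prx1 the ratio of miR-20a-5p to miR-92a-3p had an SD of 0.28, where their own log2 CPM had 0.19 and 0.17. The low value of this pair therefore does not show that they moved together. The arms of a hairpin were among the least alike, at 0.94 for miR-17 and 0.92 for miR-18a. Within Ocn and within Prx1 the values were 0.53 and 1.13 for miR-17. For miR-18a, whose ratio differed between the groups, they were 0.32 and 0.68. miR-17-5p was most like miR-18a-5p among the members (0.46), and miR-18a-5p was most like miR-20a-5p (0.35), while miR-17-3p was most like miR-92a-3p (0.32) and so was miR-18a-3p (0.49). The log2 ratio did not overlap between the groups for 5 of the 28 pairs, against 1.69% of all pairs of tested microRNAs, and all 5 hold miR-18a-3p, so they are not independent of each other. Low counts widen this measure, and miR-18a-3p and miR-19a-3p had the fewest.

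**Figure D5:**
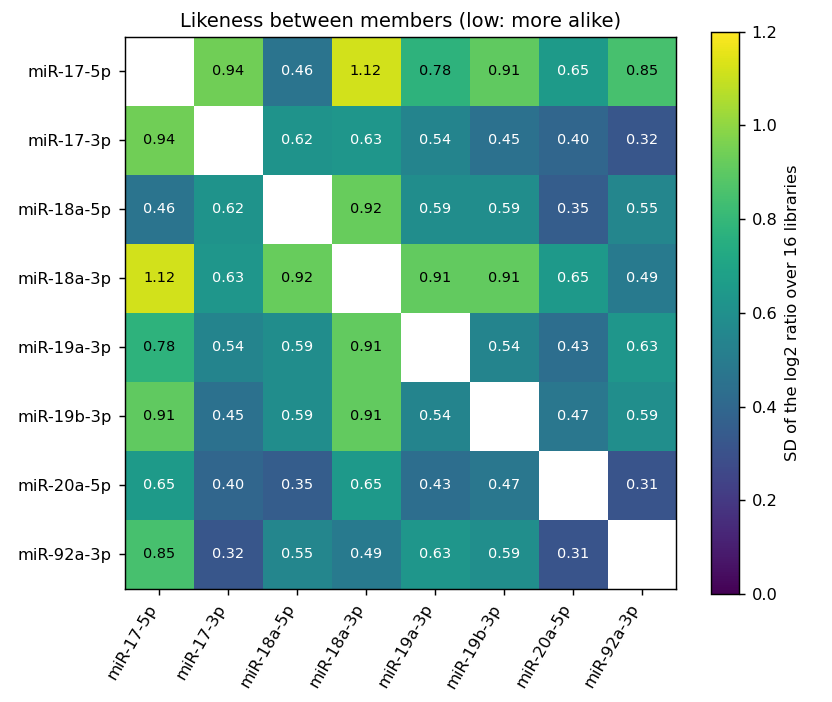
SD over the 16 libraries of the log2 ratio of each pair of members, where low values mark pairs that moved together or that both varied little. The rows of miR-17-5p and miR-18a-3p hold the highest values, up to 1.12 for their own pair, and miR-20a-5p with miR-92a-3p the lowest at 0.31.

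Among all tested microRNAs, 0 of the 8 members had another member as the nearest entry by this measure. Members were few among the 233 entries each was compared with, so this count says little. The nearest member ranked 3 for miR-17-5p (0.46, with a median of 0.82 over all entries) and 3 for miR-18a-5p (0.35, median 0.59). It ranked 8 for miR-19a-3p, 10 for miR-19b-3p and 21 to 41 for the rest. miR-17-5p was nearest to miR-139-5p (0.40) and the erythroid miR-144-3p (0.41), and miR-18a-5p to miR-144-3p (0.29) and miR-130a-3p (0.32). miR-17-3p was nearest to miR-322-5p and miR-10a-5p (0.22 each), miR-18a-3p to miR-574-3p (0.33) and miR-30d-5p (0.34), miR-19a-3p to miR-199a-5p and miR-101a-3p (0.36 each), and miR-19b-3p to miR-126a-5p (0.40) and miR-338-3p (0.41). miR-20a-5p was nearest to let-7g-5p (0.19) and miR-199a-3p (0.21). miR-92a-3p was nearest to miR-25-3p (0.19), which has the same seed, and to let-7j (0.21). miR-106b-5p, a paralog with the AAAGUGC seed that was singled out after its values were seen, was no nearer to miR-17-5p (0.67) than miR-20a-5p was (0.65). It had 226, 145 and 206 CPM in Prx1 4, Prx1 5 and Prx1 7 and 17.8 to 76.0 CPM in the other Prx1 libraries. In Ocn it was lowest in Ocn 3, at 42.9 CPM, where miR-17-5p stood at 798 CPM.

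The Mir17hg hairpins have 4 further arms in the table. miR-92a-1-5p, the passenger arm of Mir92-1, had 65.7 ± 15.2 CPM in Ocn, against 65.9 ± 16.6 CPM in Prx1 (SD, n = 6 and 10) and a log2 fold change of -0.03 (SE 0.20, edgeR adjusted p = 0.933). The other 3 were too low to test, with sums over the libraries of 32 counts in Ocn and 16 in Prx1 for miR-20a-3p, 8 and 5 for miR-19b-1-5p, and 4 and 1 for miR-19a-5p. The passenger arms, unlike the shared guides, differ in sequence between the hairpins: miR-92a-1-5p from chromosome 14 had 348 counts in Ocn and 253 in Prx1, and miR-92a-2-5p from the X chromosome 4 in Ocn and 0 in Prx1. miR-19b-2-5p of the X chromosome had 0 counts in all libraries, which allows up to 0.310 CPM over the libraries together, and its chromosome 14 counterpart was itself close to 0. How much of each passenger strand is kept was not tested, so these counts do not give the source of miR-92a-3p or miR-19b-3p.

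The seed families, formed from the 1623 microRNAs with a mature sequence, place the members among their paralogs on chromosome 5 and the X chromosome. Of the AAAGUGC family, 10320 ± 1001 CPM in Ocn, against 9762 ± 712 CPM in Prx1 (SD, n = 6 and 10), miR-17-5p and miR-20a-5p together supplied 13.3% ± 1.7 in Ocn and 11.9% ± 4.6 in Prx1. The bulk was miR-93-5p of chromosome 5, with 8719 ± 774 CPM in Ocn, against 8454 ± 872 CPM in Prx1. The sequences show how much of the mature strand these paralogs share with the members beyond the seed.
miR-93-5p: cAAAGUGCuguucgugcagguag
miR-106b-5p: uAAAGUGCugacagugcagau
miR-25-3p: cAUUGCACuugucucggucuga
miR-18b-5p: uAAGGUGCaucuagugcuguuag

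In the AUUGCAC family, with 18874 ± 2105 CPM in Ocn, against 19071 ± 2187 CPM in Prx1, miR-92a-3p supplied 45.9% ± 4.0 in Ocn and 49.2% ± 2.1 in Prx1, nearly all of the rest being miR-25-3p. miR-18a-5p supplied 57.9% ± 6.5 in Ocn and 52.6% ± 8.4 in Prx1 of the AAGGUGC family, which had 285 ± 46 CPM in Ocn, against 218 ± 47 CPM in Prx1, and miR-18b-5p the rest. The summed ranges overlapped between groups in each of these families. Of 7 tested guide arms of the paralog clusters 0 passed in either direction, with all 7 above 0 and a median log2 fold change of 0.23. Of 3 tested passenger arms 0 passed, with all 3 below 0 and a median of -0.30. Over all 234, 13.7% passed, 119 lay above 0 and 115 below, and 0 calls among so few arms is near that share. At an unadjusted edgeR p under 0.05 stood 0 of the guide arms and 1 of the passenger arms (miR-25-5p at -0.67, SE 0.31), beside 62 of the 234. With limma voom 1 guide arm and 1 passenger arm did so. After adjustment 0 of either passed with DESeq2 or limma voom. The most abundant were miR-25-3p (0.03, SE 0.11, edgeR adjusted p = 0.879), miR-93-5p (0.01, SE 0.10, edgeR adjusted p = 0.936) and the passenger miR-106b-3p (-0.30, SE 0.16, edgeR adjusted p = 0.231).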

How the data were processed

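Small RNA libraries were made from 1 ng of EV RNA per mouse with a kit that ligates adaptors to both microRNA ends, per the labels' protocols. The authors deposited raw counts per mature microRNA and library, without normalization. Per the submitters' processing notes, cutadapt 1.18 and the mm10 build were used. Which aligner and counter were used, and whether reads or molecular identifiers were counted, is not given in the sources used here. The binomial intervals take each count as an independent draw, which could not be checked, and cover counting error at most.

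CPM was computed from the deposited counts and the column totals. edgeR 4.0.16 in R 4.3.3 (TMM factors, filterByExpr by group, robust quasi-likelihood fit, group as the only term) was run on all 16 libraries, and limma 3.58.1 on log2 arm ratios with 0.5 added to each arm. SE was the log2 fold change divided by the square root of F. Log2 CPM for SDs used CPM + 1. Sex is not given per library and did not enter a model. Both tests were tried on simulated data. DESeq2 1.42.0, limma voom and other scalings, filters and sets of libraries were alternatives. All 8 members were named. For likeness the rule was the nearest 2 tested entries outside the members, and for lists those past the threshold and up to 3 of the most abundant others. The members and lists were chosen with earlier results of these data known. The thinning was repeated 20 times after seeing the data.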

Additional observations from a re-analysis of the deposited data

Results flagged for a closer look

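In 20 groups of values (8 levels and 2 log2 arm ratios in each group of libraries) 4 held a library whose gap to its neighbour was past Dixon's 95% limit, which chance gives in about 1 of 20 groups. miR-17-5p was low in Ocn 6, at 473 CPM, with the next Ocn library at 772 CPM. Ocn 3 was high in miR-17-3p, at 367 CPM with the next at 215 CPM, and in miR-19a-3p, at 165 CPM with the next at 77.5 CPM. miR-18a-3p was high in Prx1 10, at 90.2 CPM with the next Prx1 library at 66.8 CPM. Neither called member depended on these libraries, as miR-18a-3p and miR-19b-3p passed with each of them left out.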

How the results depend on the processing

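The count of members called higher in Ocn was 1 and became 2 with DESeq2, upper quartile factors or limma voom, and 0 after a single thinning draw, with depth (log10 of the total) as a covariate, or with the replicate block. With a library left out it was 1 to 2, and it was 2 without Ocn 3, Ocn 6, Prx1 4, Prx1 7 or Prx1 8, in each case by the addition of miR-18a-5p. The count of members called lower was 1, with 1 in every fit with a library left out, and 0 with the depth covariate, under which miR-92a-3p turned to a log2 fold change of 0.021 from a value that had not passed, and the miR-18a ratio stood at 1.48 (limma adjusted p = 0.0787). That ratio ran from 1.35 to 1.58 with a library left out, and that of miR-17 from 0.16 to 0.53. Depth and group moved together, so the covariate widened the SE of miR-18a-3p and miR-19b-3p, and the parts of depth and group cannot be told apart. Over all microRNAs 14 were higher and 18 lower, against 26 and 11 with upper quartile factors, where the median log2 fold change was 0.13, 0 and 0 with the depth covariate, and 9, 8 and 9 higher without Prx1 1, Prx1 2 or Prx1 3. With the replicate block miR-19b-3p had an edgeR adjusted p of 0.0670. The numbers were not taken to pair the libraries, since deviations from the group means of same-numbered libraries correlated at 0.02 to 0.20, over 0.1 in only 3 of 6 pairs, and 0 of 6 Ocn libraries were closest to the Prx1 library of the same number. With at least 10 counts over both arms in every library in place of the filter, 122 hairpins were tested and 11 ratios were higher and 8 lower in Ocn, miR-18a among those higher (limma adjusted p = 0.00865). Ratios higher in Ocn numbered 3 of 44, and 5 of the 48 then tested without Prx1 4 or without Prx1 7. After the single thinning draw, the group means of the members' shares of their summed counts moved by less than 1 SD.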
